A study of Mus musculus with 6 samples.

Results

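The translation initiation factor genes of the mouse were followed through 6 RNA sequencing libraries from the adult incisor, taken as all protein-coding genes whose symbol begins with Eif and a digit from 1 to 6, apart from the Eif2ak kinases and Eif2s3y. The choice rested on the name alone, and 49 of the 23718 listed genes met it, among 15749 listed protein-coding genes. They comprised 5 genes of eIF1 and eIF1A, 5 of eIF2 and the eIF2-like carriers, 5 of eIF2B, 14 of eIF3, 15 of eIF4, 4 of eIF5 and 1 of eIF6.

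The incisor keeps growing because mesenchymal stem cells (MSCs) at its base feed a zone of dividing transit amplifying cells (TACs), and the comparison asks which transcripts differ between these regions. The MSC group was 3 samples from Gli1-CreER;tdT mice and the TAC group 3 samples from Axin2-CreER;tdT mice, all labeled as C57BL/6 and 1 month of age. The methods write the driver as CreERT2 and the reporter as a floxed-stop tdTomato at Rosa26, and describe a mixed background. No other allele is named for these samples. In both groups tamoxifen had been given 1 day earlier, so that Cre switched on the red tdTomato reporter in cells using the Gli1 or the Axin2 promoter. Labeled regions were then cut from frozen sections with a laser, which also collects neighboring cells. In such bulk material, fewer cells of a type and less RNA per cell cannot be told apart. The study's methods give 3 mice per group. They do not say whether a sample is 1 mouse, so p-values measure the spread between these samples only.

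Initiation begins when eIF2, bound to GTP, brings the initiator tRNA to the small ribosomal subunit together with eIF1, eIF1A, eIF3 and eIF5. The cap-binding complex eIF4F, made of the cap-binding protein eIF4E, the scaffold eIF4G and the helicase eIF4A, loads the mRNA, and eIF5B joins the large subunit once the start codon is found. eIF2B recharges eIF2 with GTP and is the step that stress kinases block, whereas the mTOR pathway frees eIF4E from its 4E-BP inhibitors. Dividing cells are known to need high rates of protein synthesis.

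Values are given in the deposited unit, an estimated read number scaled per library and not divided by gene length. Replicate 3 of both groups stood apart from replicates 1 and 2. Replicates 1 and 2 had 20203159 to 25567244 estimated reads, whereas the replicate 3 libraries had 59793645 (MSC) and 108156380 (TAC). Protein-coding genes held 68.6% to 72.6% of the reads of the former and 90.7% and 93.3% of the latter. Between replicates 1 and 2 of a group the estimated reads varied 10.4 times (MSC) and 8.43 times (TAC) as much as sampling noise, by a chi-square per degree of freedom over genes, against 1501 to 1874 times between either of them and replicate 3. Results are therefore also given within these library sets. A log2 fold change is TAC minus MSC on the log2(value + 1) scale with its standard error (SE).

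Initiation factor transcripts took a larger share of the protein-coding reads in TACs than in MSCs. The 49 genes together held 0.60%, 0.590% and 0.621% of protein-coding estimated reads in the MSC libraries, in the order of their replicate numbers, and 0.883%, 0.877% and 0.884% in the TAC libraries. The groups did not overlap, and the means were 0.604% ± 0.0157 and 0.881% ± 0.00371 (SD, n = 3), a ratio of 1.46. Replicate 3 stood close to replicates 1 and 2 in this sum, in both groups. By complex, the share of eIF3 was 0.186%, 0.181% and 0.108% in MSCs and 0.285%, 0.284% and 0.219% in TACs, a ratio of means of 1.66. The share of eIF4 was 0.296%, 0.290% and 0.339% in MSCs and 0.425%, 0.418% and 0.411% in TACs, a ratio of 1.36. The share of eIF5 was 0.0546%, 0.0563% and 0.0620% in MSCs and 0.0797%, 0.0793% and 0.117% in TACs, a ratio of 1.60. TACs were above MSCs in every library for these 3 complexes. The eIF1, eIF2, eIF2B and eIF6 shares had TAC to MSC ratios of 1.33, 1.48, 1.24 and 1.07, with overlapping groups.

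**Figure D1:**
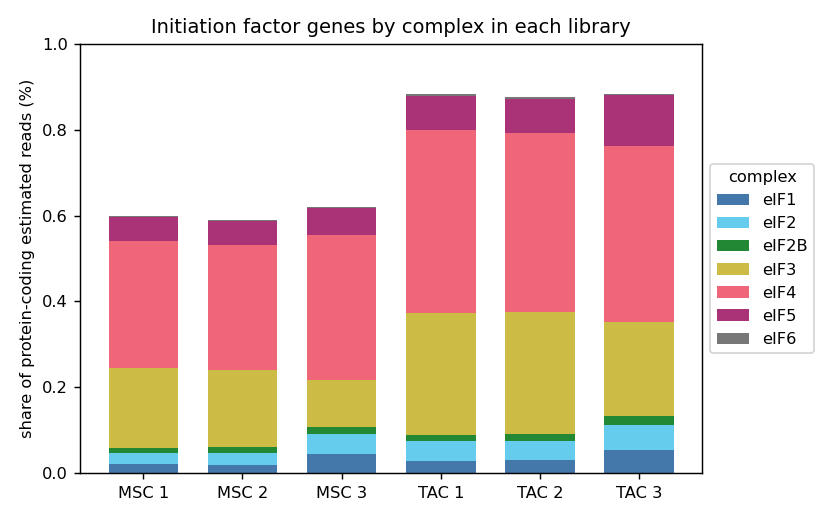
Share of protein-coding estimated reads (%) held by the initiation factor genes in each of the 6 libraries, stacked by complex. The bars reach 0.590% to 0.621% in the 3 MSC libraries and 0.877% to 0.884% in the 3 TAC libraries, and eIF3 and eIF4 make up most of each bar.

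Gene by gene, most members had higher values in TACs, and in the fit of all 6 samples with no block or library set term none passed a test corrected over the genome. All 49 genes had a mean of at least 1 and were tested among 15391 genes. With limma, 0 of 49 passed an adjusted p of 0.05, where 0.422% of all genes did in either direction and 0.039% with TACs higher. At an unadjusted p under 0.05, 14 of 49 were higher in TACs against 5.42% of all genes, and 0 were higher in MSCs against 6.43%. The groups did not overlap for 19 of 49 with TACs higher, where 12.3% of all genes did so, and for 0 with MSCs higher, where 12.2% did. A log2 fold change above 0 was found for 44 of 49 (51.5% of all genes), and 34 were above 0 both in replicates 1 and 2 and in replicate 3 (30.1% of all genes). The median of the 49 was 0.62, against 0.03 over all genes tested and 0.05 over protein-coding genes, and the range ran from -0.80 for Eif3j2 to 1.47 for Eif3e. Replicates 1 and 2 alone gave a median of 0.61 and replicate 3 alone 0.79. The TAC value exceeded the MSC value of the same replicate number in all 3 pairs for 32 genes, and the reverse held for Eif2d and Eif2b3. Of all 15391 genes tested, 3783 were above in all 3 pairs and 4059 below.

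The replicate number was also fitted as a block, although among replicates 1 and 2 samples of different number deviated together as much as those of the same number. In that limma fit 2 of 49 passed the adjusted threshold with TACs higher (0.604% of all genes), Eif4a1 and Eif5a, each at an adjusted p of 0.0442, and 0 with MSCs higher (0.884%). When replicates 1 and 2 of each group were averaged as 1 sample, 0 of 49 passed the adjusted threshold (0.065% of all genes in either direction). With a library set term in place of the block, 13 of 49 passed it with TACs higher (5.22% of all genes). At an unadjusted p under 0.05 the block gave 23 higher in TACs (9.43% of all genes) and 0 higher in MSCs (10.9%). It added Eif2a, Eif2b1, Eif3a, Eif3b, Eif3g, Eif4e, Eif4ebp2, Eif4g1, Eif4g2 and Eif5 to the 14 genes and took away Eif1b. The count of 14 without the block depended on single libraries and on the processing. It was 8 with median-ratio scaling (4.88% of all genes), 2 with replicates 1 and 2 averaged (1.82%), 27 with a library set term (14.2%) and 37 in replicates 1 and 2 alone (23.4%). With samples left out it was 8 without MSC replicate 1, 6 without MSC replicate 2, 7 without TAC replicate 1 and 8 without TAC replicate 2, and 21 and 14 without replicate 3 of MSC and TAC. The shares of all genes in these 6 fits were, in the same order, 4.31%, 4.37%, 2.61%, 2.64%, 8.63% and 5.65%. Leaving out 1 sample turned the direction of 9 members and moved the fold change of 21 others by over 1.5 times. The matching counts over all genes are not given here.

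**Figure D2:**
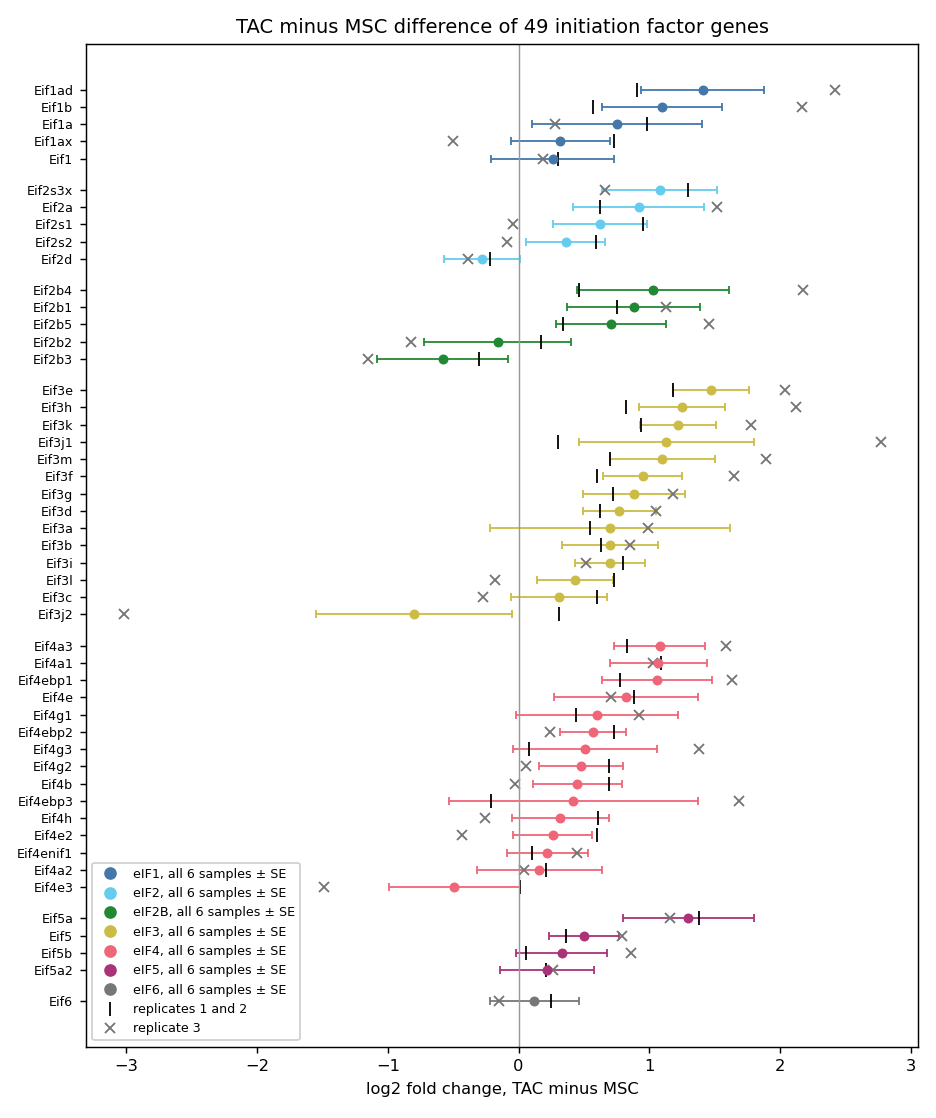
Log2 fold change TAC minus MSC of the 49 genes by complex, as colored points ± SE from all 6 samples, with the difference in replicates 1 and 2 (black ticks) and in replicate 3 (gray crosses). Points lie above 0 for 44 genes, and the widest distance between tick and cross is that of Eif3j2, at 0.31 and -3.02.

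The 250 bases before the RefSeq transcription start were available on GRCm38.p6 for 38 of the 49 genes, with 3 members left out here because of the chromosome they lie on. CACGTG, the E-box read by MYC and related factors, lay in this stretch for 9 of 38 genes (23.7%), against 6.86% of 27025 genes and 6.02% of 32851 windows. The 9 were Eif1b, Eif3f, Eif3k, Eif4a1, Eif4e, Eif4g1, Eif4h, Eif5a and Eif5a2. It is its own reverse complement, so both strands are covered. Among the matched genes it was in 5 of 14 whose groups did not overlap and in 4 of the other 24. The CCAAT box, searched as CCAAT or ATTGG, was in 12 of 38 (31.6%), against 37.5% of genes and 33.8% of windows. A match is a description of the letters and not a site of binding. Of the 6 genes that hold both motifs, the 4 whose groups did not overlap are shown, with the motifs in capitals, and Eif4e and Eif5a are not.

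Eif4a1 (chr11:69672424-69672673, minus strand): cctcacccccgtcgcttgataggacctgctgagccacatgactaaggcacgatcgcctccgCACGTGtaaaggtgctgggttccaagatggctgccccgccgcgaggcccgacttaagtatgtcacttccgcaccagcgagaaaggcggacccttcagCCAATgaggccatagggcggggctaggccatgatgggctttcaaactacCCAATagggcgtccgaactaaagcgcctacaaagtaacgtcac
Eif3f (chr7:108934165-108934414, plus strand): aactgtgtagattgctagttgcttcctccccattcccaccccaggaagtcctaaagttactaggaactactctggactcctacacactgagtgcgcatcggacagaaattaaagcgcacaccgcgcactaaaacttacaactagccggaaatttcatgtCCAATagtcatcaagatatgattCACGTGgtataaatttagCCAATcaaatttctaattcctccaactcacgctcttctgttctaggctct
Eif3k (chr7:28981889-28982138, minus strand): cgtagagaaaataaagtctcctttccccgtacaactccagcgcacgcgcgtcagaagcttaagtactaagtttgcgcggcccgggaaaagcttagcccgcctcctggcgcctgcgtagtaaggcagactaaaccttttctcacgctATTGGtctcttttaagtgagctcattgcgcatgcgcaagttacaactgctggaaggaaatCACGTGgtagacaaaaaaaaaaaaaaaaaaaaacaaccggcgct
Eif5a2 (chr3:28781027-28781276, plus strand): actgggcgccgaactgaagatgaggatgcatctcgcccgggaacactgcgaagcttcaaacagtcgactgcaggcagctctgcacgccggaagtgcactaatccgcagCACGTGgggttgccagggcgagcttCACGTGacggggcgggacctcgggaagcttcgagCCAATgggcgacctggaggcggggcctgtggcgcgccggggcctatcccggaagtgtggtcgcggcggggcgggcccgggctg

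The E-box began 189 bases before the start in Eif4a1, 68 in Eif3f, 44 in Eif3k, and 142 and 117 in Eif5a2. These 4 genes had different values: Eif4a1, Eif3f and Eif3k are among the 14 genes at an unadjusted p under 0.05, whereas Eif5a2 differed by 0.22 on the log2 scale.

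Transcripts that open with a C and a run of pyrimidines, the TOP motif through which mTOR and LARP1 control translation, were read as a C at the RefSeq start followed by 4 bases that are each C or T. Of 38 genes 2 had it (5.26%), against 3.01% of genes and 2.51% of windows. Both runs were 11 bases long and are in capitals after the 8 bases before the start.

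Eif3f (chr7:108934407-108934430, plus strand): taggctctCTCTCTTTCTCggcaa
Eif2s3x (chrX:94212636-94212659, minus strand): gcattttcCTTTTCTCTCCgagca

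Among the factors that keep the small subunit open for scanning, eIF1 and eIF1A, all 5 genes had a log2 fold change above 0, with a median of 0.75. Single libraries moved this median, to 0.33 when MSC replicate 2 was left out and 0.38 when TAC replicate 3 was, and replicate 3 on its own gave 0.28. Eif1ad, which encodes a protein with an eIF1A-like domain, read 8.02, 5.94 and 3.04 in MSCs, by replicate number, and 12.6, 15.3 and 20.6 in TACs. Every TAC value was above every MSC value, and replicate 3 was the lowest of the MSCs and the highest of the TACs. The log2 fold change was 1.41 ± 0.47 (SE, limma unadjusted p = 0.0180, adjusted p = 0.293). Eif1ad overlaps Banf1 on the opposite strand, and reads of the pair cannot be told apart because the use of strand in counting is not given in the sources used here. Eif1b, a near relative of the start-codon selector Eif1, read 8.66, 8.66 and 3.68 in MSCs and 11.9, 15 and 20 in TACs. These did not overlap either, with a log2 fold change of 1.10 ± 0.46 (limma unadjusted p = 0.0466, adjusted p = 0.410; unadjusted p = 0.0624 with the replicate block). Eif1 itself, more abundant per length, differed by 0.26 (-0.11 without TAC replicate 3), with a TAC mean of 51.7 ± 25.3 per kb (SD, n = 3) after division by transcript length.

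The eIF2 group had a median log2 fold change of 0.62 (0.37 without MSC replicate 1 and -0.04 in replicate 3 alone). MSCs and TACs overlapped for all 5 genes, where 12.3% of all genes were apart with TACs higher and 12.2% with MSCs higher. Eif2s3x encodes the X-linked gamma subunit that holds GTP and the initiator tRNA. It read 24.8, 28.0 and 68.4 in MSCs and 64.9, 67.6 and 109 in TACs. Only MSC replicate 3 reached the TAC range, and each TAC value was above the MSC value of its number. The log2 fold change was 1.08 ± 0.44 (limma unadjusted p = 0.0427, adjusted p = 0.398; SE 0.20 and adjusted p = 0.0806 with the replicate block and 0.0168 with a library set term). The alpha and beta subunits, Eif2s1 and Eif2s2, had fold changes of 0.95 and 0.59 in replicates 1 and 2 but -0.04 and -0.09 in replicate 3. Of the carriers that can deliver tRNA without eIF2, Eif2a differed by 0.92 (0.43 when TAC replicate 3 was left out) and Eif2d by -0.28. Neither passed the unadjusted threshold with limma in the fit without a block, whereas Eif2a had an unadjusted p of 0.0334 with it.

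For eIF2B, the exchange factor, the median was 0.71 (0.36 without MSC replicate 3). None of the 5 genes reached an unadjusted p of 0.05 with limma, where 11.9% of all genes did in either direction. With the replicate block 1 did (20.4% of all genes), the alpha subunit gene Eif2b1 (limma unadjusted p = 0.0459). The catalytic epsilon subunit Eif2b5 read 24.4, 22.2 and 8.77 in MSCs and 29.4, 29.8 and 25.9 in TACs, without overlap. MSC replicate 3 lay furthest from the rest, and the log2 fold change was 0.71 ± 0.42 (limma adjusted p = 0.575), or 0.27 when that library was left out. The regulatory delta subunit Eif2b4, which overlaps Snx17, read 13.0, 8.19 and 2.34 in MSCs and 12.8, 16.5 and 14.2 in TACs. MSC replicate 1 lay within the TAC range and MSC replicate 3 far below it, and the log2 fold change was 1.03 ± 0.58 (limma adjusted p = 0.551), or 0.44 without the latter. Eif2b3, the gamma subunit that works with Eif2b5, was the eIF2B gene with the lowest fold change, at -0.58 (-0.15 when MSC replicate 3 was left out), and was lower in the TAC library of each pair. Across the 5 subunits, 3 fold changes were above 0 and 2 below.

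The eIF3 complex, the large scaffold on the small subunit, had the most genes apart between the groups. Of its 14 genes 13 had a log2 fold change above 0, 7 reached an unadjusted p of 0.05 and 9 had groups that did not overlap, all with TACs higher, and the median was 0.82. The shares of all genes were 51.5%, 5.42% and 12.3%. With the replicate block 10 reached an unadjusted p of 0.05 (9.43% of all genes). The 8 genes of the core built from PCI and MPN domains (a, c, e, f, h, k, l, m) had a median of 1.02, with 5 of 8 at an unadjusted p under 0.05. The 6 genes of peripheral subunits had a median of 0.73, with 2 of 6. No test compared these modules.

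In the core, Eif3e read 27.9, 27.2 and 23.6 in MSCs and 61.0, 66.4 and 100 in TACs. The MSC libraries lay close together, and every TAC value was far above them. Its log2 fold change of 1.47 ± 0.29 was the largest of the 49 (limma unadjusted p = 0.00132, adjusted p = 0.109; adjusted p = 0.0684 with the replicate block). The gene lies on mm10 at chr15:43250040-43282736. Eif3h, the MPN partner of Eif3f, lies on the same chromosome at chr15:51786558-51865481. It read 38.5, 33.0 and 24.1 in MSCs and 63.8, 63.2 and 108 in TACs, a log2 fold change of 1.25 ± 0.33 (limma unadjusted p = 0.00637, adjusted p = 0.188). Eif3k at chr7:28971372-28981864, a small subunit at the edge of the core, read 24.7, 23.5 and 17.2 in MSCs and 45, 49.6 and 61.4 in TACs. In all 3 of these genes the groups were wide apart and replicate 3 had the lowest MSC and the highest TAC value. The fold changes of Eif3e, Eif3h and Eif3k were 1.18, 0.82 and 0.94 in replicates 1 and 2. In replicate 3 they were larger, at 2.04, 2.12 and 1.78. For Eif3k the log2 fold change was 1.22 ± 0.29 (limma unadjusted p = 0.00348, adjusted p = 0.159).

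Eif3f at chr7:108934417-108942951, whose pyrimidine start and promoter are printed above, read 53.2, 55.1 and 40.6 in MSCs and 85.7, 79.8 and 130 in TACs, a log2 fold change of 0.95 ± 0.30 (limma unadjusted p = 0.0144, adjusted p = 0.272). Eif3m, which overlaps Ccdc73, read 15.6, 10.8 and 11.3 in MSCs and 24.4, 19.3 and 44.8 in TACs, a log2 fold change of 1.10 ± 0.40 (limma unadjusted p = 0.0277, adjusted p = 0.343). Both were free of overlap between the groups. Their fold changes were 0.60 and 0.70 in replicates 1 and 2 against 1.65 and 1.89 in replicate 3. With each library left out in turn, Eif3e, Eif3f, Eif3h and Eif3k kept an unadjusted p under 0.05 in all 6 limma fits, the highest being 0.0356 for Eif3f. How many of all genes did so is not given here. Eif3e, Eif3f and Eif3h had been listed as subunits known for TOP mRNAs. All 3 reached an unadjusted p of 0.05 with TACs higher (5.42% of all genes), with a median of 1.25, and of the 3 only Eif3f had the pyrimidine start as read above. The list held these 3 eIF3 genes only and was made with earlier results of these data known. It does not stand for TOP mRNAs in general.

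Of the largest core subunits, Eif3a read 283, 291 and 42.3 in MSCs and 414, 429 and 84.8 in TACs. Replicate 3 was far below the others in both groups, and within each library set TACs were higher, by 0.55 and 0.99. Its fitted log2 fold change was 0.70 ± 0.92 (limma adjusted p = 0.835; adjusted p = 0.0924 with the replicate block and 0.0196 with a library set term). It turned to -0.22 when MSC replicate 3 was left out. Eif3c and Eif3l had fold changes of 0.60 and 0.73 in replicates 1 and 2 against -0.27 and -0.18 in replicate 3.

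On the periphery, Eif3d, which can bind the cap of selected mRNAs, read 43.9, 34.6 and 26.1 in MSCs and 62.5, 58.7 and 55.2 in TACs. The TAC values varied little, and the log2 fold change was 0.77 ± 0.28 (limma unadjusted p = 0.0299, adjusted p = 0.350). Eif3i, a WD-repeat subunit, read 19.7, 27.6 and 26.7 in MSCs and 42.4, 40.3 and 38.7 in TACs. The difference was 0.80 in replicates 1 and 2 and 0.52 in replicate 3, and the fit gave 0.70 ± 0.27 (limma unadjusted p = 0.0349, adjusted p = 0.372). Eif3g, the partner of Eif3i, read 33.0, 32.0 and 14.9 in MSCs and 54.7, 53.9 and 35.1 in TACs. Its lowest TAC value was just above the highest MSC value, and the log2 fold change was 0.88 ± 0.39 (limma unadjusted p = 0.0587, adjusted p = 0.444; unadjusted p = 0.00763 with the replicate block), and 0.52 when MSC replicate 3 was left out.

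The j subunit, which loosely holds the complex to the ribosome, is encoded by near-identical copies, Eif3j1 and Eif3j2, and the division of reads between them is uncertain. Eif3j1, which also overlaps Spg11, read 25.6, 20.8 and 3.45 in MSCs and 27.2, 30.3 and 29.4 in TACs. Eif3j2 read 3.65, 5.22 and 21.8 in MSCs and 4.40, 7.28 and 1.81 in TACs. In MSC replicate 3 the low value of one copy coincided with the high value of the other. Taken separately their fold changes were 1.13 ± 0.67 and -0.80 ± 0.75 (limma adjusted p = 0.571 and 0.737), and 0.32 and -0.10 when that library was left out. Added together the copies read 29.2, 26.0 and 25.2 in MSCs and 31.6, 37.6 and 31.2 in TACs. The sums did not overlap and had means of 26.8 ± 2.13 and 33.5 ± 3.56 (SD, n = 3), a ratio of 1.25.

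**Figure D3:**
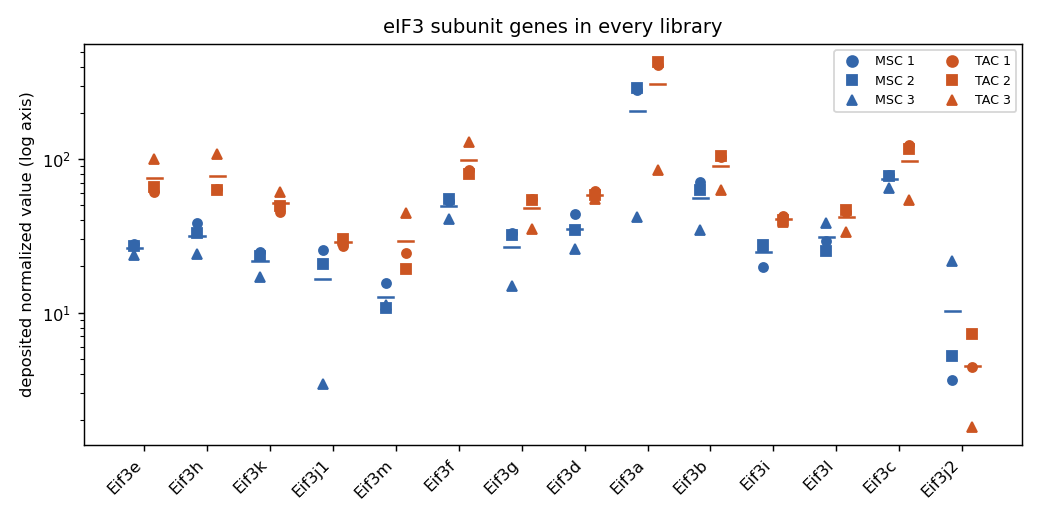
Deposited normalized value (log axis) of the 14 eIF3 genes in each MSC (blue) and TAC (orange) library, with marker shape for the replicate and a short line for each group mean. Groups are apart for 9 genes, and triangles (replicate 3) depart furthest for Eif3a, Eif3j1 and Eif3j2.

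Divided by the longest coding transcript in GENCODE M21, the median eIF3 level in TACs was 33.5 per kb (44.4 with the median transcript length of each gene). The highest TAC levels were 60.5 ± 19.7 for Eif3h, 60.3 ± 38.0 for Eif3a and 57.2 ± 9.36 for Eif3k (SD, n = 3), which did not differ beyond their spread. With the median transcript length they were 60.5, 104 and 67.2, so that the order of these 3 changed. Eif3j1 at 5.35 ± 0.290 and Eif3j2 at 1.89 ± 1.15 were the lowest. The levels of the 14 transcripts were thus unequal per length.

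Within eIF4, 14 of 15 genes had a fold change above 0, with a median of 0.48, and 3 reached an unadjusted p of 0.05 with TACs higher (5.42% of all genes), or 7 with the replicate block (9.43%). Eif4a1, the main RNA helicase of eIF4F, lies on mm10 at chr11:69666936-69672423, next to the promoter printed above. It read 87.8, 86.1 and 156 in MSCs and 190, 181 and 320 in TACs. Replicate 3 was highest in both groups, yet no MSC value reached the lowest TAC value, and the TAC excess was nearly the same in the sets, at 1.09 and 1.03. The log2 fold change was 1.07 ± 0.37 (limma adjusted p = 0.326), and with the replicate block the SE was 0.11 and the adjusted p 0.0442. Its paralogue Eif4a2, which overlaps Rfc4, read 117, 127 and 290 in MSCs and 143, 139 and 298 in TACs, a log2 fold change of 0.16 ± 0.48 (limma adjusted p = 0.945). It was below 0 with MSC replicate 1, MSC replicate 2 or TAC replicate 3 left out, at -0.20 in the last case.

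The ratio of the helicases was set side by side in each library. Eif4a1 over Eif4a2 was 0.753, 0.680 and 0.536 in MSCs and 1.33, 1.30 and 1.07 in TACs, with no overlap, and the mean log2 ratio was 0.92 higher in TACs. A two-sided exact permutation test gave p = 0.1, the smallest that 3 against 3 samples allow, and 0.571 after adjustment over the 8 pairs of related genes compared. The pairs were chosen after values had been seen, and the other 7 overlapped. Per kb of the longest transcript, the TAC levels of Eif4a1 and Eif4a2 were 130 ± 43.6 and 71.4 ± 33.5, and the MSC levels 61.9 ± 22.3 and 65.7 ± 36.0 (SD, n = 3). With the median transcript length Eif4a2 was at 112 in TACs and 103 in MSCs, and Eif4a1 was unchanged. The comparison of levels between these genes thus depends on the length used. Eif4a3, a helicase of the same family that marks exon junctions, read 22.2, 15.6 and 10.3 in MSCs and 36.1, 31.7 and 33.0 in TACs. All TAC values were above the MSC values, with a log2 fold change of 1.08 ± 0.35 (limma unadjusted p = 0.0166, adjusted p = 0.284).

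**Figure D4:**
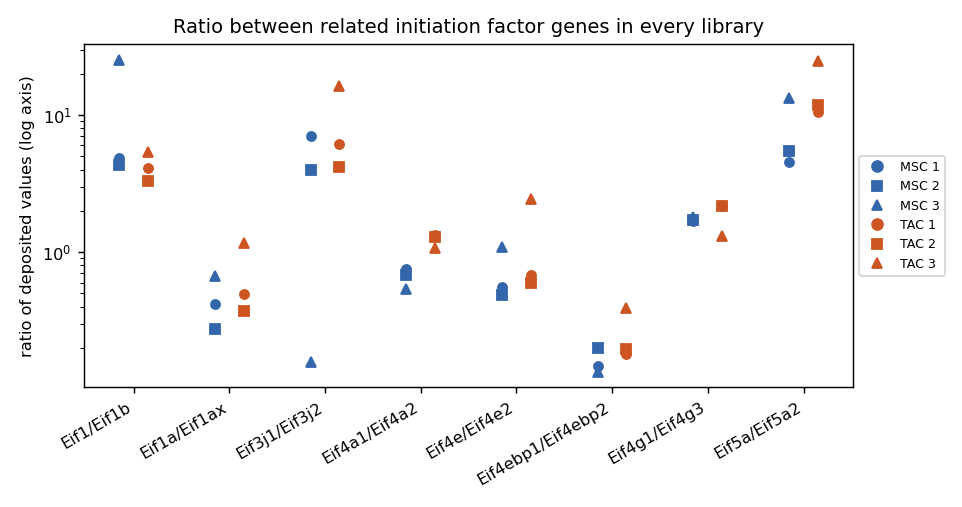
Ratio of deposited values (log axis) for 8 pairs of related initiation factor genes in each MSC (blue) and TAC (orange) library, with marker shape for the replicate. The groups are apart for Eif4a1/Eif4a2, at 0.536 to 0.753 in MSCs and 1.07 to 1.33 in TACs, and overlap for the others.

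The 4E-BP proteins hold eIF4E away from eIF4G until mTOR phosphorylates them. Eif4ebp1 read 5.22, 6.55 and 5.42 in MSCs and 10.3, 11.2 and 18.9 in TACs. The MSC values were close together and all below the TACs, with a log2 fold change of 1.06 ± 0.42 (limma unadjusted p = 0.0389, adjusted p = 0.385). Eif4ebp2, with higher values before division by length, read 35.3, 32.8 and 40.6 in MSCs and 57.2, 57.1 and 48.0 in TACs. Its log2 fold change was 0.57 ± 0.25 (limma unadjusted p = 0.0581, adjusted p = 0.444; unadjusted p = 0.0326 with the replicate block). Eif4ebp3 was low and uneven, from 0.0266 to 9.54 over the 6 libraries. Together with the 4E transporter Eif4enif1, the inhibitors took 0.0209% ± 0.000966 of protein-coding reads in MSCs and 0.0287% ± 0.000794 in TACs (SD, n = 3), without overlap. The summed share of the cap-binding genes Eif4e, Eif4e2 and Eif4e3 overlapped between the groups, at 0.0193% ± 0.00817 in MSCs and 0.0248% ± 0.00460 in TACs. Eif4e had log2 fold changes of 0.88 in replicates 1 and 2 and 0.71 in replicate 3, and 0.82 ± 0.55 in the fit (limma adjusted p = 0.617; unadjusted p = 0.00648 with the replicate block). It was 0.39 when TAC replicate 3 was left out and 1.31 when MSC replicate 3 was.

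Among the scaffolds, Eif4g2, which drives translation without eIF4E binding, read 223, 206 and 217 in MSCs and 345, 349 and 226 in TACs. TAC replicate 3 lay only just above the highest MSC library, and the fitted difference was 0.48 ± 0.32 (limma adjusted p = 0.613; unadjusted p = 0.0420 with the replicate block), 0.69 in replicates 1 and 2 and 0.06 in replicate 3. Eif4g1, the main scaffold, had 247, 239 and 67.0 in MSCs and 335, 323 and 128 in TACs. As with Eif3a, replicate 3 was low in both groups and the TAC value was higher in each pair. Its log2 fold change was 0.60 ± 0.62 (limma adjusted p = 0.770; unadjusted p = 0.0115 with the replicate block), and it stood at -0.02 when MSC replicate 3 was left out.

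Of the eIF5 genes, Eif5a, a hypusine-bearing factor that helps ribosomes through difficult stretches and release, lies on mm10 at chr11:69916714-69921958. It read 45.5, 46.3 and 119 in MSCs and 115, 126 and 267 in TACs. MSC replicate 3 exceeded TAC replicate 1, and each TAC value was more than the MSC value of its number by 1.38 in replicates 1 and 2 and 1.16 in replicate 3 on the log2 scale. The log2 fold change was 1.30 ± 0.50 (limma unadjusted p = 0.0331, adjusted p = 0.363), and with the replicate block the SE was 0.13 and the adjusted p 0.0442. Its paralogue Eif5a2, whose promoter carries a pair of E-boxes, read 10.1, 8.43 and 8.93 in MSCs and 11.0, 10.6 and 10.9 in TACs. These did not overlap but differed by only 0.22 ± 0.36 (limma adjusted p = 0.877). Per kb, the TAC levels were 118 ± 58.9 for Eif5a and 2.15 ± 0.0400 for Eif5a2 (SD, n = 3).

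Eif5, which triggers GTP hydrolysis on eIF2, read 69.4, 74.3 and 48.4 in MSCs and 91.1, 93.6 and 84.1 in TACs, without overlap. Its log2 fold change was 0.50 ± 0.27 (limma unadjusted p = 0.106, adjusted p = 0.534; unadjusted p = 0.0286 with the replicate block), and ran from 0.31 to 0.62 with 1 sample left out. Eif5b, which joins the subunits and overlaps Rev1, differed by 0.33 (-0.01 without MSC replicate 3). The median of the 4 eIF5 genes was 0.42, and 0.26 without MSC replicate 3. Eif6, which keeps the large subunit from joining too early, read 15.7, 15.6 and 13.7 in MSCs and 18.9, 18.7 and 12.2 in TACs. TAC replicate 3 was the lowest of all 6, and the log2 fold change was 0.12 ± 0.34 (limma adjusted p = 0.940), or 0.02 to 0.31 with 1 sample left out.

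The TAC minus MSC differences of the library sets were also set against each other. The limma interaction between group and library set passed an adjusted p of 0.05 for 35 of 49 genes (71.4%), where 57.2% of all genes did. For 12 of the 49 (24.5%) it passed and the sets had opposite directions (27.8% of all genes). Eif4b and Eif4h, cofactors of the helicase, had 0.69 and 0.61 in replicates 1 and 2 against -0.03 and -0.26 in replicate 3. The error of this term comes from replicates 1 and 2 alone, which lie much closer to each other than to the single replicate 3 library of a group. Restricted to replicates 1 and 2, 36 of 49 genes passed the adjusted threshold with TACs higher (20.0% of all genes) and 0 with MSCs higher (24.2%). In that fit n is 2 per group. Of the 11 members with transcripts over 4000 bases, 7 in MSCs and 8 in TACs were lower in replicate 3 than in replicates 1 and 2, as were 26 and 25 of all 49 members and 5 and 2 of the 9 with transcripts under 1500 bases. The shift of replicate 3 from replicates 1 and 2 had a Pearson correlation with log2 transcript length of -0.194 in MSCs and -0.454 in TACs over the 49 genes. The Spearman rank correlation was -0.108 in MSCs and -0.419 in TACs. Both are a description across genes that share their libraries. The shift was -2.74 and -2.30 for Eif3a in MSCs and TACs.

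**Figure D5:**
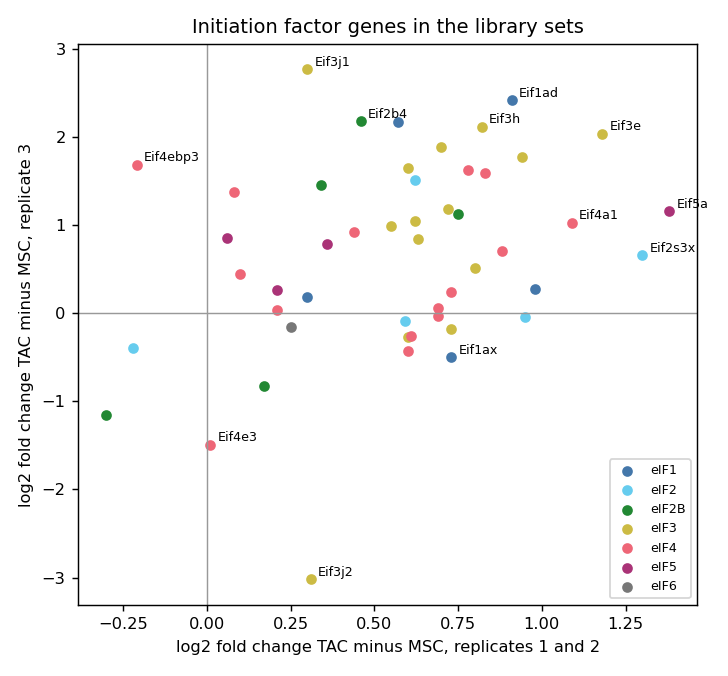
Log2 fold change TAC minus MSC of each of the 49 genes in replicates 1 and 2 (horizontal) against replicate 3 (vertical), colored by complex. Of the points 34 lie above 0 on both axes, and Eif3j1 and Eif3j2 stand at 2.77 and -3.02 on the vertical axis.

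Members that overlap another coding gene or have a near-identical copy were also left out. For the 36 that remained, the median log2 fold change was 0.70 and 12 reached an unadjusted p of 0.05 with TACs higher (5.42% of all genes). The eIF2B median of 0.71 fell to 0.28, with 2 of 4 genes above 0. The eIF1, eIF2, eIF3, eIF4 and eIF5 medians were 0.53, 0.85, 0.77, 0.57 and 0.50.

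Other genes of translation were taken from lists. Of 11 genes for eIF2 kinases and the stress response 9 were tested. Their median was 0.30, but -0.24 in replicates 1 and 2 and 0.28 in replicate 3, and with limma 0 were higher in TACs and 1 in MSCs at an unadjusted p under 0.05. That gene was Eif2ak2, the kinase that senses double-stranded RNA, at 20.8, 19.4 and 42.6 in MSCs and 12, 12.5 and 1.94 in TACs, a log2 fold change of -1.74 ± 0.67 (limma unadjusted p = 0.0349, adjusted p = 0.372; unadjusted p = 0.0713 with the replicate block). It was -0.67 in replicates 1 and 2, -3.89 in replicate 3 and -1.02 when TAC replicate 3 was left out, and 3 of the 6 fits with a sample left out kept an unadjusted p under 0.05. Of 13 regulators of eIF4F and mTOR 1 reached that threshold with TACs higher, and their median was 0.32, with -0.10 in replicates 1 and 2 against 0.62 for replicate 3. This was Pabpc1, the poly(A)-binding protein that contacts eIF4G, at 218, 199 and 129 in MSCs and 426, 424 and 280 in TACs. Its log2 fold change was 1.06 ± 0.36 (limma adjusted p = 0.304; adjusted p = 0.0442 with the replicate block and 1.0 with replicates 1 and 2 averaged). All 10 genes of elongation, termination and recycling had fold changes above 0, with a median of 0.69, and 2 reached an unadjusted p of 0.05. Abce1, which splits ribosomes after termination, read 24.1, 23.4 and 20.5 in MSCs and 56.8, 53.4 and 80.0 in TACs, a log2 fold change of 1.42 ± 0.28 (limma unadjusted p = 0.00123, adjusted p = 0.108). Eef1b2, an exchange factor for eEF1A, had 1.10 ± 0.27 (limma unadjusted p = 0.00405, adjusted p = 0.168). The 6 hypusine, scanning and reinitiation cofactors had a median of 0.20 and none at that threshold, and the enzymes that make hypusine on eIF5A, Dhps and Dohh, differed by 0.01 and 0.21. Over these lists 4 of 38 tested genes were at an unadjusted p under 0.05 in either direction, where 11.9% of all genes were. With the replicate block it was 12 of 38, where 20.4% of all genes were.

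Markers of proliferation and of some other cells moved with the groups, counted here by limma at an unadjusted p under 0.05. The 6 proliferation markers summed to 128 to 216 in MSCs and 319 to 992 in TACs, with 5 of 6 higher in TACs. Dental mesenchyme was present in all libraries, its 7 markers summing to 934 to 1170 in MSCs and 716 to 783 in TACs, with 3 higher in MSCs and 1 in TACs. Smooth muscle and pericyte markers summed to 768 to 1450 in MSCs and 126 to 151 in TACs, with 5 of 5 higher in MSCs, and 5 endothelial markers to 129 to 195 and 62.8 to 84.1, with 2 higher in MSCs. Odontoblast markers (2 genes, Dmp1 at 0 reads in at least 1 library) ranged from 476 to 4910 in MSCs and from 3100 to 4420 in TACs, with 0 past the threshold. The 7 dental epithelium markers ranged from 300 to 3660 and from 2140 to 3340, with 1 higher in TACs and with Epcam and Cdh1 at 0 reads in at least 1 library. All 7 epithelium genes had a fold change above 0, and Krt5, Krt14, Epcam and Cdh1 were without overlap and higher in TACs, by 0.80, 0.79, 1.62 and 1.73 on the log2 scale, although Krt14 gave 0.45 without TAC replicate 3 and Cdh1 0.97 without MSC replicate 3. In replicates 1 and 2 alone 5 of the 7 were above 0, with Amelx at -0.21 and Enam at -0.07, and the sum was lower in TACs (3260 and 3340) than in MSCs (3660 and 3590). Amelx and Enam turned to -0.67 and -0.71 when MSC replicate 3 was left out. Both sums were lowest in replicate 3 of each group. The lists of 5 macrophage, 4 Schwann and 5 erythroid genes summed to 55.1 to 106, 19.1 to 43.2 and 37.2 to 79.0 in MSCs and to 30.7 to 86.9, 5.87 to 19.2 and 56.3 to 75.8 in TACs, with 1, 1 and 0 higher in MSCs and Adgre1, Sox10 and Alas2 at 0 reads in at least 1 library. The part of these cells, and of the difference in proliferation, in the initiation factor values was not tested.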

How the data were processed

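Single-end reads from 3 MSC and 3 TAC laser-captured samples were trimmed and aligned with TopHat 2.0.8 to mm10 by the authors, who describe an RPKM normalization. The counter and its strand setting are not given in the sources used here. The deposited values form a signal rather than RPKM: most low values (66.9% to 75.5%, within 0.05) are whole multiples of each library's lowest value, whatever the gene length. Estimated reads are the value divided by that lowest value, minus 1, and reached at least 136 in every library for every member but Eif4ebp3. Values were tested as log2(value + 1) with limma 3.58.1 (R 4.3.3, empirical Bayes with trend, two-sided) on 15391 genes, those whose mean reached 1, with Benjamini-Hochberg adjustment over all of them at 0.05. The planned test assumed a normalized expression value and suits this signal. Unadjusted 0.05 was counted because the methods name it. The fits were also run on simulated data, with equal noise for all genes and any library shift the same in both groups. The real libraries are less even, so that run checked the code and not the fit to these data.

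Deviations of same-numbered samples from their group means correlated at 0.477, 0.465 and 0.517 across genes, and the number was used as a replicate block. The methods speak of pairs of samples without tying them to these numbers, and MSC replicate 1 with TAC replicate 2 and MSC replicate 2 with TAC replicate 1 gave 0.462 and 0.480, so what is shared is mainly the split of replicate 3. Alternatives were other pseudocounts, filters, scalings and variance models, the block, a library set term, replicates 1 and 2 alone or averaged, limma voom on estimated reads, and each sample left out. Gene coordinates are those of the deposited table, with the end lowered by 1.

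Values in every sample are given for members past the adjusted threshold, at an unadjusted p under 0.05, with groups that did not overlap, or with the largest absolute change in their complex, and both fold changes where library sets differ with opposite directions. Other members named, such as Eif3a, Eif3j2, Eif4a2 and Eif4g1, were chosen after their values were seen. The members, lists and tests were chosen with earlier results of these data known. Eif4e1b is not analysed here.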

Additional observations from a re-analysis of the deposited data

Results flagged for a closer look

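In 12 genes the TAC minus MSC difference changed direction between replicates 1 and 2 and replicate 3, and the limma interaction of group and library set passed an adjusted p of 0.05. Such a change of direction with a passing test was met by 27.8% of all genes. In 11 genes the value was higher in TACs in replicates 1 and 2 and lower in replicate 3. The helicase cofactors Eif4b (0.69 in replicates 1 and 2 and -0.03 in replicate 3, limma adjusted p = 0.000181) and Eif4h (0.61 and -0.26, adjusted p = 0.000503) were among them, as were the cap-binding genes Eif4e2 (0.60 and -0.43, adjusted p = 0.00141) and Eif4e3 (0.01 and -1.49, adjusted p = 0.00393). The remaining genes, with limma values in the same order, were Eif1ax (0.73 and -0.50, adjusted p = 0.000958), Eif2s1 (0.95 and -0.04, adjusted p = 0.0107), Eif2s2 (0.59 and -0.09, adjusted p = 0.00390), Eif2b2 (0.17 and -0.82, adjusted p = 0.0272), Eif3c (0.60 and -0.27, adjusted p = 0.000274), Eif3l (0.73 and -0.18, adjusted p = 0.00270) and Eif3j2 (0.31 and -3.02, adjusted p = 0.000530). Eif4ebp3 went the other way (-0.21 and 1.69, adjusted p = 0.0369 by limma). Replicate 3 is 1 library per group and the error comes from replicates 1 and 2 alone. The cause was not tested.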

How the results depend on the processing

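Over 1022 values from the alternatives tried, 29 of 49 members kept their direction throughout and 20 reversed in at least 1. In replicate 3 only, values reversed for Eif1ax (-0.50), Eif2s1 (-0.04), Eif2s2 (-0.09), Eif3c (-0.27), Eif3l (-0.18), Eif4b (-0.03), Eif4e2 (-0.43), Eif4h (-0.26) and Eif6 (-0.15). In replicates 1 and 2 only they reversed for Eif2b2 (0.17), Eif3j2 (0.31), Eif4e3 (0.01) and Eif4ebp3 (-0.21). With a sample left out, the ranges that crossed 0 were -0.11 to 0.67 for Eif1, -0.42 to 0.36 for Eif2b2, -0.22 to 1.46 for Eif3a, -0.20 to 0.57 for Eif4a2, -0.58 to 1.03 for Eif4ebp3, -0.02 to 0.40 for Eif4enif1, -0.02 to 1.05 for Eif4g1, -0.13 to 0.85 for Eif4g3 and -0.01 to 0.51 for Eif5b. With limma 0 members passed the adjusted threshold and 14 an unadjusted p of 0.05. The adjusted count was 13 with a library set term (5.22% of all genes with TACs higher), 2 with the replicate block (0.604%) and 36 with replicates 1 and 2 only (20.0%), and 0 with replicates 1 and 2 averaged, with voom on estimated reads and with each sample left out. The unadjusted count, with the share of all genes called the same way, was 27 with a library set term (14.2%), 8 with median-ratio scaling (4.88%), 23 with the replicate block (9.43%), 2 with replicates 1 and 2 averaged (1.82%), 37 with replicates 1 and 2 only (23.4%), and 6 to 21 with a sample left out (2.61% to 8.63%), against 5.42% for the 14. For the 4 other translation genes at that threshold, where 11.9% of all genes stood in either direction, the same settings gave 18 (set term, 29.6% of all genes), 12 (replicate block, 20.4%), 2 (averaged, 3.96%), 28 (replicates 1 and 2 only, 51.9%) and 3 to 8 (sample left out, 6.68% to 20.2%). The members' median of 0.62 was 0.49 with a pseudocount of 8 and 0.79 in replicate 3 only. The eIF1 median of 0.75 was 0.44 with a pseudocount of 8 and 0.33 to 1.01 with a sample left out. The eIF2 median of 0.62 reversed to -0.04 in replicate 3 only. The eIF3 level per kb of 33.5 was 44.4 with the median transcript. Median-ratio, quantile and coding-sum scaling moved the median of all genes by less than 0.1. Among the members and the other translation genes the block changed 1 further adjusted call, that of Pabpc1, and no other. The causes were not tested. Replicate 3 has 1 library per group and no replicate of its own kind.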
